A study of Mus musculus with 6 samples.

Results

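The genes described here are 10 non-collagen markers of pancreatic stellate cells and fibroblasts, namely Postn, Sparc, Acta2, Des, Vim, Pdgfra, Pdgfrb, Dcn, Lum and Fn1. They were taken as every probe set whose platform annotation names 1 of these genes and no other, which gave 22 probe sets of the 45037 tested and all 10 genes of the 18193 measured. RNA of whole pancreas was measured on 6 Affymetrix arrays. They came from 3 Rkip-1 knockout mice (written KO) and 3 wild-type mice (WT), all 8 weeks old, from 1 colony kept on C57BL/6. Sex is not recorded in the labels, nor is how or in which cells the deletion was made. Rkip-1 is the Raf kinase inhibitor protein that current annotation calls Pebp1, and the series title asks about its part in beta cell proliferation.

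Stellate cells lie around the acini of the pancreas. At rest they carry desmin and retinoid droplets, and on injury they can become myofibroblast-like cells that make smooth muscle actin and lay down matrix. PDGF drives their growth and migration, and TGF-beta their matrix production. None of the 10 markers is exclusive to them: vimentin and Sparc are made by other mesenchymal, endothelial and immune cells, desmin and smooth muscle actin by muscle, and both PDGF receptors by fibroblasts or pericytes in general. In RNA of a whole organ, fewer cells of a type and less RNA per cell cannot be told apart.

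All 10 markers had a lower mean in KO than in WT, and none of them passed the test. A gene is represented here by its brightest probe set over all arrays, and differences are KO minus WT on the log2 scale, where -1 is a halving. They ran from -0.82 for Postn to -0.02 for Pdgfrb, with a median of -0.29. The median over all 18193 genes was -0.00056. In limma's test at an adjusted p under 0.05, 0 of the 10 were called, against 0.0275% of all genes called as lower. At an unadjusted p under 0.05, 3 of the 10 were lower (Postn, Acta2 and Vim), against 5.58% of all genes. Among the 7174 genes whose mean lay above the upper quartile of all probe sets, as it did for 9 of the 10 markers, 9.66% were lower at that p, 61.6% had a lower mean in KO (50.2% of all genes), and the median difference was -0.042. Without KO replicate 1 or without WT replicate 2, 1 of the 10 was lower at an unadjusted p under 0.05, against 862 and 779 of the 18193 genes, with median differences of -0.12 and -0.16.

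The check of the labels came first. Pebp1 measured 5.89, 6.50 and 5.71 in the KO arrays and 9.81, 10.01 and 9.81 in the WT arrays (adjusted p 5.05e-05), so every KO array was low, though the labels do not say which part of the gene was removed. Array medians ran from 2.97 to 3.02, and correlations between pairs of arrays from 0.989 to 0.993. The acinar enzyme Cpa1 lay at 14.35 or above in every array. Arrays fell into a high and a low Xist class. Xist was high in KO replicates 2 and 3 and WT replicate 3 (9.09 to 9.79) and low in the other arrays (4.00 to 4.43). The Y-linked genes Eif2s3y and Kdm5d split the arrays the other way. Eif2s3y measured 4.888, 4.757 and 5.288 in KO replicate 1 and WT replicates 1 and 2, and 2.196 to 2.915 elsewhere. Kdm5d measured 3.846, 3.836 and 3.597 against 2.099 to 2.636. By these genes the low Xist arrays read as male and the high ones as female. KO replicate 1 was then the only male KO array.

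Postn encodes periostin, a secreted matricellular protein that activated stellate cells and fibroblasts make. Its single probe set measured 5.56, 6.30 and 6.16 in KO replicates 1, 2 and 3, and 6.87, 7.02 and 6.57 in WT replicates 1, 2 and 3. Every KO array lay below every WT array, with KO replicate 1 furthest down. The means were 6.00 ± 0.40 in KO and 6.82 ± 0.23 in WT (SD, n = 3 each), a 1.76-fold lower level in KO with a 95% interval of 1.32 to 2.36. The unadjusted p was 0.0016 and the adjusted p 0.256, so it did not pass. Without KO replicate 1 the difference was -0.59, and leaving out other single arrays gave -0.96 to -0.72.

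Acta2, alpha smooth muscle actin, is the usual marker of the activated, contractile stellate cell and also of vascular smooth muscle. It measured 6.34, 7.02 and 7.03 in KO and 7.07, 7.24 and 7.52 in WT. The groups did not overlap, but the gap between KO replicate 3 and WT replicate 1 was small beside the distance of KO replicate 1 from the other KO arrays. The difference was -0.48 (95% interval -0.90 to -0.06, adjusted p 0.512), and -0.26 without KO replicate 1. Groups that do not overlap, with KO below, were found for 2 of the 10 markers, Postn and Acta2, against 7.56% of all genes and 12.6% of the brighter genes. The probe set behind Acta2 has a suffix that marks possible binding of several transcripts. Its other 2 probe sets lay below the array medians, between 2.15 and 2.75, and differed by 0.01 and 0.04.

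Vim encodes vimentin, the intermediate filament of mesenchymal cells, and had 3 probe sets well above the array medians. The brightest measured 7.85, 8.34 and 8.41 in KO and 8.29, 8.77 and 8.69 in WT. KO replicate 1 was the low array and WT replicate 1 lay below KO replicates 2 and 3, so the groups overlapped. The difference was -0.38 (95% interval -0.76 to -0.01, adjusted p 0.572). A second probe set did not overlap, at 6.93 to 7.65 in KO and 7.66 to 8.09 in WT, with a difference of -0.53 (adjusted p 0.438). The third differed by -0.43 with overlapping groups. Without KO replicate 1 the brightest differed by -0.21.

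Des, desmin, is the intermediate filament of muscle and of resting stellate cells. It measured 4.997, 5.054 and 4.982 in KO and 5.023, 5.195 and 5.058 in WT. All 6 values lay within a narrow band and the groups overlapped. The difference was -0.08 with a 95% interval of -0.28 to 0.12, so a fall in KO larger than 0.28 on the log2 scale lay outside that interval. The second Des probe set lay near the array medians.

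**Figure D1:**
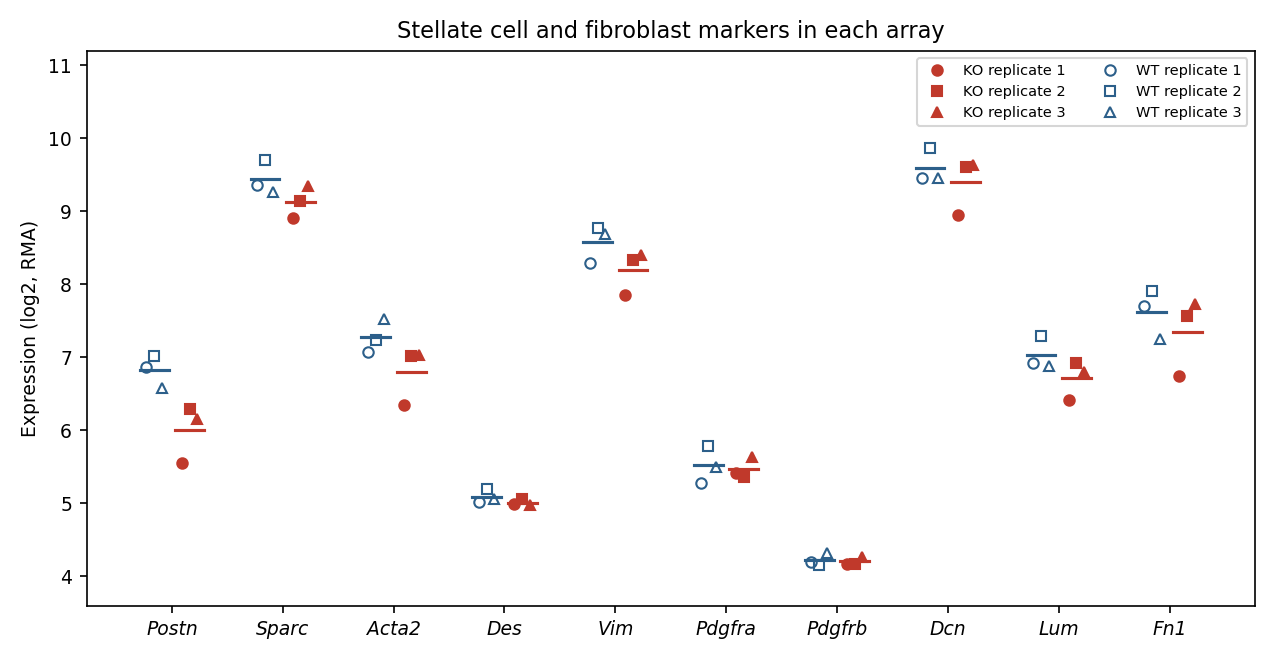
Expression of the 10 markers (x axis) on the log2 scale (y axis), 1 point per array, filled red for KO and open blue for WT, with marker shape giving the replicate and a bar the group mean. Postn and Acta2 are the 2 genes whose KO points all lie below the WT points, and KO replicate 1 (red circle) is the lowest point in 7 of the 10 genes.

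The promoters of the 3 markers with an unadjusted p under 0.05 are shown, as the genes with the smallest p among the 10. Promoters of 6 of the 10 genes were in the RefSeq table (GRCm38.p6), with 2 starts for Postn, of which the second is shown. Each sequence is the 250 bases before the annotated start, 5′ to 3′ on the gene's strand. Capitals mark a TATA-type match or a CArG-type match, the element bound by serum response factor.

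Postn, chr3:54360857-54361106, plus strand: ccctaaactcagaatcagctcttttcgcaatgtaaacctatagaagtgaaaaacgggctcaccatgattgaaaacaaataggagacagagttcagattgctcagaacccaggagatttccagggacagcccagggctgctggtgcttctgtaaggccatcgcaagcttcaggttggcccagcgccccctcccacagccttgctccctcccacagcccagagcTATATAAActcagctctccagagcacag
Acta2, chr19:34255374-34255623, minus strand: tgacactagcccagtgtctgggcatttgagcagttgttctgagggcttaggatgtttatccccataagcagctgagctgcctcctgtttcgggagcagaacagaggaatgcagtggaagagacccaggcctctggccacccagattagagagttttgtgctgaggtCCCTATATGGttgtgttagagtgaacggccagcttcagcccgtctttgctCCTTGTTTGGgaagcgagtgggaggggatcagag
Vim, chr2:13574061-13574310, plus strand: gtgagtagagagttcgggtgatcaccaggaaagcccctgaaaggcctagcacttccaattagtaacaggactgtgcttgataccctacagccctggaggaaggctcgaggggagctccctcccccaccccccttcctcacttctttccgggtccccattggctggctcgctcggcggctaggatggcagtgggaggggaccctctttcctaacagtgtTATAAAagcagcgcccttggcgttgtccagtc

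Both strands were searched for the CArG box, for the TATA form TATAAA, for the GC element GGGCGG and for the AP-1 element TGANTCA. A second TATA form, TATATAA, and a CArG box with 1 mismatch in its A/T core were added after the sequences were seen. Postn held both TATA forms at the start shown, overlapping, the last base 21 bases before that start. The promoter of its other start held neither form. Vim held TATAAA with its last base 27 bases before the start. The first TATA form was present in 12.4% of the 32851 promoters in the table and the second in 3.04%. Acta2 held 2 CArG-type elements with 1 mismatch, CCCTATATGG and CCTTGTTTGG, a form present in 7.24% of promoters. No member promoter held the strict CArG box (1.47% of promoters) or TGANTCA (6.75%), and GGGCGG was found in Des (32.7% of promoters). These are matches of letters and not measured binding sites.

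Sparc, a collagen-binding glycoprotein of the matrix, was measured by 2 bright probe sets that gave nearly the same difference. The brighter read 8.90, 9.14 and 9.35 in KO and 9.37, 9.70 and 9.26 in WT. KO replicate 3 lay above WT replicate 3, so the groups overlapped, and WT replicate 2 was the highest. The differences were -0.31 (95% interval -0.64 to 0.01, adjusted p 0.586) and -0.32 (adjusted p 0.640). The first was -0.20 without KO replicate 1 and -0.19 without WT replicate 2.

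Dcn and Lum encode decorin and lumican, small leucine-rich proteoglycans that bind collagen fibrils, and are neighbouring genes on mouse chromosome 10. Dcn measured 8.96, 9.61 and 9.63 in KO and 9.45, 9.86 and 9.46 in WT. KO replicates 2 and 3 both lay above WT replicates 1 and 3, and KO replicate 1 lay below all other arrays. The difference was -0.19 (95% interval -0.61 to 0.23), and 0.030 without KO replicate 1. Lum measured 6.42, 6.93 and 6.80 in KO and 6.93, 7.30 and 6.89 in WT, a difference of -0.32 (95% interval -0.66 to 0.03, adjusted p 0.609). It was -0.17 without KO replicate 1 and -0.19 without WT replicate 2. Over the 6 arrays Dcn and Lum correlated at Pearson r = 0.92, and at 0.96 after each genotype's mean was subtracted. Their low and high arrays were the same, KO replicate 1 and WT replicate 2.

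Fn1, fibronectin, is a cell-adhesive matrix glycoprotein made by fibroblasts and stellate cells, and in plasma by the liver. It measured 6.75, 7.56 and 7.73 in KO and 7.70, 7.91 and 7.25 in WT. KO replicate 1 lay below all other arrays, while KO replicates 2 and 3 lay above WT replicate 3. The difference was -0.28 with a wide 95% interval of -0.83 to 0.28, and 0.024 without KO replicate 1.

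The PDGF receptors showed the smallest differences of the 10 genes. Pdgfra marks fibroblasts and measured 5.42, 5.37 and 5.64 in KO and 5.28, 5.79 and 5.50 in WT, a difference of -0.05 (95% interval -0.35 to 0.26). The highest and lowest of these values were both WT arrays. Pdgfrb, of stellate cells and pericytes, measured 4.17, 4.17 and 4.27 in KO and 4.20, 4.15 and 4.32 in WT. That difference was -0.02 (-0.22 to 0.18), and -0.18 (-0.44 to 0.09) at its second probe set. Both Pdgfrb probe sets lay under the arrays' upper quartile, where a fold can read too small.

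**Figure D2:**
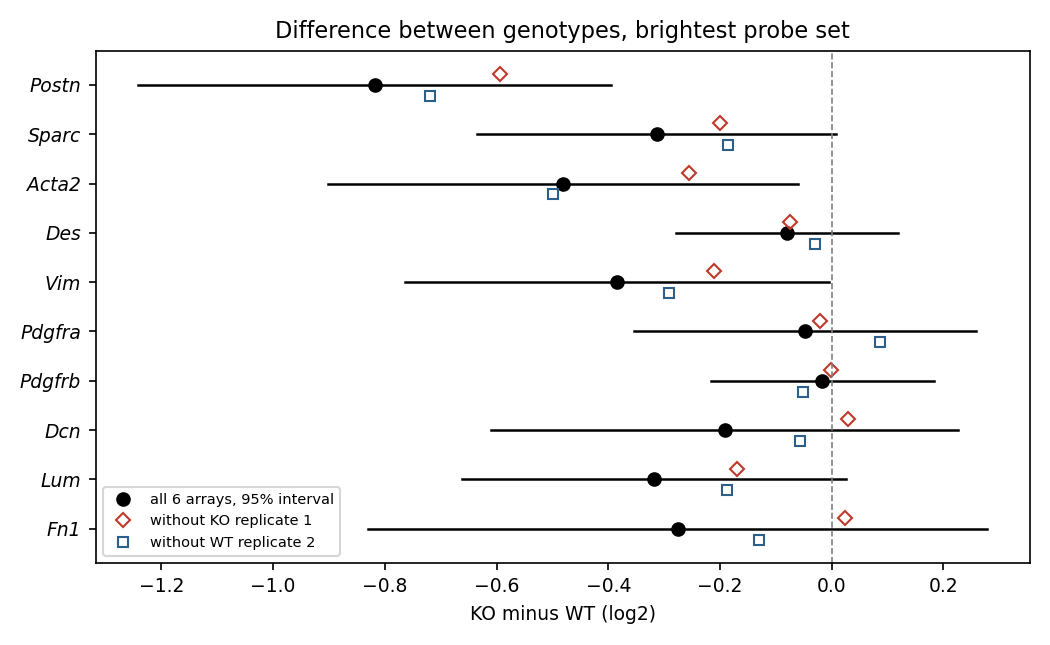
KO minus WT on the log2 scale (x axis) for each marker (y axis). Black points and lines are the difference over all 6 arrays with its 95% interval, red diamonds the difference without KO replicate 1 and blue squares that without WT replicate 2. Postn lies furthest from 0 in all 3 settings, while Dcn and Fn1 sit just above 0 without KO replicate 1.

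Of the 22 probe sets of these genes, 12 had a mean above the upper quartile of all probe sets, and all 12 were lower in KO. They cover 9 genes, all but Pdgfrb. A further 7 lay within 0.5 of the median level of all probe sets or under it, where 2 were lower and 5 higher, by -0.20 to 0.06. None of the 22 passed the test, and 4 had an unadjusted p under 0.05, against 0.0244% and 4.66% of all probe sets lower by these rules.

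The markers varied together among mice of the same genotype. KO replicate 1 was the lowest of the 6 arrays in 7 of the 10 genes, and WT replicate 2 the highest in 8. Among the brighter genes in general KO replicate 1 was the lowest array in 22.1% and WT replicate 2 the highest in 21.6%. Averaged over the 10 genes, the deviation from a gene's mean was -0.44, -0.03 and 0.03 in KO replicates 1, 2 and 3, and 0.04, 0.32 and 0.08 in WT replicates 1, 2 and 3. KO replicates 2 and 3 thus lay close to WT replicates 1 and 3. Of the 45 pairs of markers, 39 correlated positively over the 6 arrays, with a median r of 0.68, and 39 did after the genotype means were subtracted, with a median r of 0.57. Postn and Fn1 reached 0.96 in the latter measure, and Acta2 and Vim 0.88. Pdgfrb was the exception, with r from -0.57 against Des to 0.58 against Acta2. These coefficients describe 6 arrays that share 1 low and 1 high mouse. Pairs of other genes were not correlated in this way, so no background stands beside them.

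**Figure D3:**
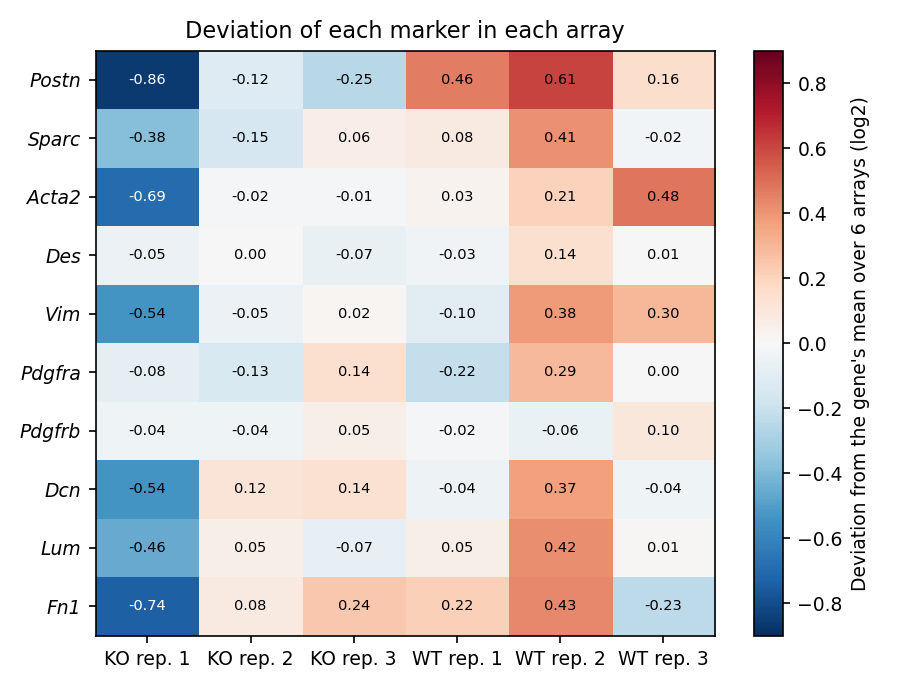
Deviation of each marker (rows) in each array (columns) from that gene's mean over the 6 arrays, on the log2 scale, with blue for lower and red for higher. The column of KO replicate 1 is negative in all 10 genes, from -0.86 for Postn to -0.04 for Pdgfrb, and the column of WT replicate 2 is positive in every gene except Pdgfrb.

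Genes of the surrounding pathway were read from lists that hold none of the 10 markers. In the list of fibrillar and other matrix genes 14 of 16 measured members were lower in KO, with a median of -0.27. None passed by limma, and 8 were lower at an unadjusted p under 0.05, against 5.58% of all genes and 9.66% of the brighter genes. Eln (elastin) measured 5.02, 5.38 and 5.60 in KO and 6.00, 5.93 and 5.90 in WT, a difference of -0.61 (adjusted p 0.249). Col1a1, a chain of type I collagen, differed by -0.61 with and without KO replicate 1. The proteoglycan Bgn (biglycan) differed by -0.43, and by -0.32 without that array. Without KO replicate 1 the list had 12 of 16 lower, with a median of -0.17. Of these, 7 were lower at an unadjusted p under 0.05, against 862 of the 18193 genes.

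Enzymes and inhibitors of matrix remodelling were lower in 10 of 10 measured members, with 0 past the test and a median of -0.23. At an unadjusted p under 0.05, 3 were lower, against 5.58% of all genes. Mmp14, a membrane-bound matrix metalloproteinase, differed by -0.31 and its substrate Mmp2 (gelatinase A) by -0.30. They differed by -0.32 and -0.18 without KO replicate 1. Serpinh1, the collagen chaperone, differed by -0.23. Without KO replicate 1 the median was -0.10, with 9 of 10 lower and 1 at an unadjusted p under 0.05 (862 of the 18193 genes).

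In the TGF-beta and PDGF list 9 of 13 were lower and 4 higher, 0 passed, and the median was -0.08. At an unadjusted p under 0.05, 3 were lower, against 5.58% of all genes. Smad3, which carries the TGF-beta signal to the nucleus, measured 5.88 to 6.00 in KO and 6.29 to 6.41 in WT, a difference of -0.38 (adjusted p 0.250) and -0.35 without KO replicate 1. Smad7, an inhibitor of the same signal and one of its targets, differed by -0.29, and the ligand Pdgfd by -0.42, or by -0.25 without KO replicate 1. Ccn2 (connective tissue growth factor), another TGF-beta target, differed by 0.19 in the other direction. Of the other ligands, Pdgfa differed by 0.03, Pdgfb by 0.10, Pdgfc by -0.04, Tgfb1 by -0.08, Tgfb2 by -0.22 and Tgfb3 by 0.16, each with an unadjusted p above 0.05. Without KO replicate 1, 9 of 13 were lower, 1 of them at an unadjusted p under 0.05, against 862 of the 18193 genes.

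Genes tied to resting stellate cells were lower in 4 of 8 measured members, with a median of -0.01. None of the 8 passed. At an unadjusted p under 0.05, 2 were lower, against 5.58% of all genes, and 1 was higher. The share of all genes higher at that p was not counted. Of the 8 genes, 4 lay near the array medians and 3 above the upper quartile. Those 3, Rgs5, Plin2 and Fabp4, all had a lower mean in KO. Fabp4, which is also a gene of fat cells, differed by -0.44, or by -0.26 without KO replicate 1. It was lowest in KO replicate 1 (9.03) and highest in WT replicate 2 (10.33), as was the adipocyte gene Adipoq. Rgs5, a regulator of G protein signalling in pericytes and stellate cells, differed by -0.48 (7.16 to 7.50 in KO, 7.78 to 7.93 in WT, adjusted p 0.268). Plin2, a lipid droplet coat protein of many cell types, differed by -0.26. Lrat, which esterifies retinol for storage in such droplets, lay near the array medians and differed by 0.28. Gfap was between 4.26 and 4.54 in all arrays. Smooth muscle and pericyte genes were lower in 8 of 10, with 0 past the test and a median of -0.09. An unadjusted p under 0.05 was reached by 3 of the lower genes, against 5.58% of all genes. Notch3, a receptor of mural cells, differed by -0.35 and Tagln (transgelin) by -0.46, or by -0.25 without KO replicate 1. The smooth muscle myosin Myh11 differed by -0.02, and 5 of these 10 genes lay near the array medians.

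Markers of other cells moved with the low array. Of 9 other fibroblast genes 7 were lower, with a median of -0.21, which was -0.03 without KO replicate 1. Its array means ranged from 5.54 to 6.04 in KO and from 5.82 to 6.21 in WT. Macrophage genes were lower in 6 of 8 (median -0.21, and -0.03 without KO replicate 1), with array means of 4.86 to 5.41 in KO and 5.27 to 5.47 in WT. Mesothelial genes were lower in 6 of 6 (median -0.22) and in 2 of 6 without that array. Their means ranged from 3.30 to 4.09 in KO and 3.72 to 4.37 in WT. Of these 6 genes, 3 lay near the array medians, Msln among them, and 2 above the upper quartile. Those 2 were Upk3b and Krt19, which is also a keratin of pancreatic duct cells. Krt19 differed by -0.26, or by -0.18 without KO replicate 1. Upk3b was at 3.70 in KO replicate 1 against 4.80 to 5.75 elsewhere.

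In the fat list the low array showed in Adipoq and Retn, the 2 of its 7 genes above the upper quartile. Adipoq, the adipocyte hormone adiponectin, measured 2.26 in KO replicate 1, below the array median, 5.73 and 5.65 in the other KO arrays, and 5.12, 6.99 and 6.06 in WT. Retn measured 5.16 in KO replicate 1 and 5.30 to 6.69 in the other arrays. The other 5 fat genes, Lep among them, lay near the array medians. The fat list was lower in 4 of 7 members, with array means of 3.03 to 3.83 in KO and 3.48 to 4.03 in WT. Its median difference was -0.04, and 0.12 without KO replicate 1. The part of fat, mesothelium or macrophages in the lower markers was not tested. Endothelial genes did not share the low array: 0 of 8 were lowest in KO replicate 1, 5 of 8 were lower in KO and the median was -0.05. Lymphocyte genes were lower in 2 of 7 (median 0.08), Schwann cell genes in 2 of 4 (0.02) and skeletal muscle genes in 3 of 7 (0.03), and most of these lymphocyte and muscle genes lay near the array medians. None of the genes in these lists of other cells passed in limma. At an unadjusted p under 0.05, 1 other fibroblast gene, 2 macrophage genes and 1 endothelial gene were lower, against 5.58% of all genes. The 2 macrophage genes were Itgam, below the array medians, and Adgre1, under the upper quartile. By the same rule 1 lymphocyte gene (Cd3e, near the array medians) and 1 Schwann cell gene (Sox10) were higher. The share of all genes higher by this rule was not counted, so these counts have no background beside them.

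**Figure D4:**
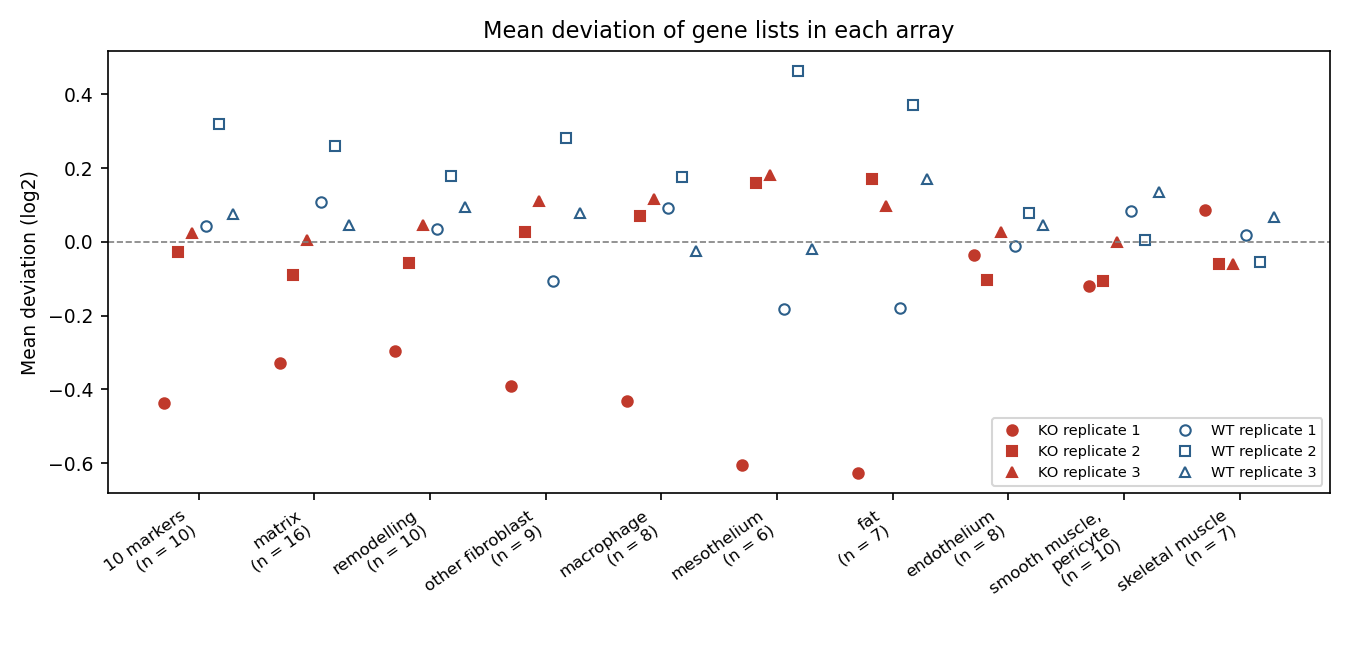
Mean deviation of each gene list (x axis, n is the number of measured genes) in each array, on the log2 scale (y axis), as the mean over genes of the array's value minus the gene's mean over 6 arrays. KO replicate 1 (red circle) is the lowest point for the 10 markers at -0.44, and for matrix, remodelling, fibroblast, macrophage, mesothelial and fat genes. It is also lowest for smooth muscle and pericyte genes, at -0.12 against -0.11 in KO replicate 2, but not for endothelial or skeletal muscle genes.

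The Xist class was unevenly spread over genotypes, so the markers were also read within it. Among the 3 arrays with high Xist (2 KO, 1 WT) 7 of 10 markers were lower in KO with a median difference of -0.03. Among the 3 with low Xist (1 KO, 2 WT) all 10 were lower with a median of -0.68, and the single KO array there is KO replicate 1. Postn differed by -0.34 and -1.39 in these classes, Acta2 by -0.50 and -0.81, Vim by -0.32 and -0.68, Fn1 by 0.39 and -1.06. With the Xist level as a covariate over all arrays the median was -0.34, 10 of 10 were lower and 0 passed. Each class holds too few arrays for a test.

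The genes whose arrays followed the mean of the 10 markers most closely were sought among 7165 other genes above the upper quartile. These were Pmp22, a myelin and growth arrest protein (Pearson r = 0.996 over 6 arrays), Serping1, the C1 esterase inhibitor (0.993), the RNA-binding protein gene Rbms3 (0.993), the matrix protein gene Efemp1 (0.991) and the spectrin gene Sptbn1 (0.991). Efemp1 measured 5.97, 6.71 and 6.91 in KO and 6.86, 7.30 and 6.84 in WT, the same low and high arrays as Dcn and Lum. None of these 5 genes passed the test, with differences from -0.47 to -0.13. The coefficients were picked as the highest of many over 6 arrays and are a description only.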

How the data were processed

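Arrays were grouped by the genotype in the sample titles, and the mice are called biological replicates there. The authors deposited log2 values made by RMA (affy), per the submitters' processing notes, with no version or setting named. RMA equalises the arrays' distributions, so a shift shared by most genes cannot be seen. Depth does not apply to arrays, and their number limits the precision.

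The table held 45101 probe sets. Control probe sets, 64 in all, were left out. Platform annotation gave 1 symbol for 34958, several for 932 and none for 9211, and 34754 symbols were updated through the RefSeq gene table of GRCm38.p6. KO minus WT was tested with lmFit and eBayes of limma 3.58.1 (R 4.3.3), two-sided, without covariates, adjusted by Benjamini and Hochberg over 45037 probe sets. Intervals are 95%, with 9.53 degrees of freedom. The fit was tested on simulated data. Figures used matplotlib 3.10.9.

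The members and gene lists were chosen with earlier results of these data known. Named were all 10 members, Pebp1, up to 3 genes of smallest p per pathway or cell type list and the 5 genes of most similar pattern. Cpa1, Ccn2, Pdgfa, Pdgfb, Pdgfc, Tgfb1, Tgfb2, Tgfb3, Gfap, Myh11, Msln, Upk3b, Lep, Fabp4, Retn, Eif2s3y and Kdm5d were named after their values were seen. Alternatives covered normalization, centring, filters, variance model, array weights, single arrays left out, Xist as a covariate, the choice of probe set and the threshold. Same-numbered replicates did not deviate together (correlations of 0.19, -0.03 and -0.08), so the number was not used as a pairing.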

Additional observations from a re-analysis of the deposited data

How the results depend on the processing

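No member gene passed under any of the 16 alternative fits or at an adjusted p under 0.1, and the lowest adjusted p of a member was 0.158, for Acta2 with the Xist level as a covariate, in a range for that gene up to 0.987. Of 160 member differences under these fits 154 kept their sign. The other 6 turned positive: Dcn at 0.030 and Fn1 at 0.024 without KO replicate 1, Pdgfra at 0.0070 without KO replicate 2 and at 0.086 without WT replicate 2, Pdgfrb at 0.031 without WT replicate 3, and Acta2 at 0.014 without probe sets of suffix x, s or a, where only its dim probe sets remain. With single arrays left out, Pdgfra ranged from -0.17 to 0.086, Pdgfrb from -0.052 to 0.031, Dcn from -0.31 to 0.030 and Fn1 from -0.47 to 0.024. The median member difference ranged from -0.39 to -0.12 with single arrays left out, from -0.29 with all. It was -0.23 after a second quantile normalization and -0.32 with equal array medians, with all 10 lower in both. Over all probe sets the count past the threshold was 44, and 16 to 41 with single arrays left out. It was 22 with the Xist covariate, 24 with 1 probe set per gene, 25 without those suffixes and 76 at an adjusted p under 0.1. With the replicate number as a block, which is not a pairing here, 33 probe sets and 0 members passed, and 5 members were lower at an unadjusted p under 0.05, against 1015 of the 18193 genes. Low signal limits what Lrat and the second Des probe set, near the array medians, and Pdgfrb, under the upper quartile, can show.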
